A study of Mus musculus with 8 samples.

Results

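Genes of macrophages and other leukocytes were examined in the palatal shelves of mouse embryos, which grow from the maxillary processes and join to form the secondary palate. The list held 33 genes, and each was read on the probe set that carries its symbol alone and has the highest mean over all arrays. All 33 had such a probe set, out of 18193 genes that could be named on the array in this way. Genotype differences play no part in this rule, though the list was drawn up with earlier results of these data known. Shelves were dissected at embryonic day 14.5 from embryos of a C57BL/6 and SV129 cross. Of 8 arrays, 4 held shelves of the genotype R26Pax3/Pax3 (replicates 1, 3, 4 and 7, called mutant here) and 4 held shelves of wild type littermates (replicates 2, 6, 8 and 11). The allele name denotes Pax3, a paired-box transcription factor known from neural crest and myogenic progenitors, placed at the Rosa26 locus. The labels name no Cre driver and do not say which cells expressed the allele, or whether a sample was 1 embryo or a pool. The p-values therefore measure the spread between these samples, which may be technical in part.

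Macrophages of the embryo arise from yolk sac and fetal liver progenitors and settle in tissues before birth. They depend on the receptor Csf1r and its ligands Csf1 and Il34, and on the transcription factor PU.1, the product of Spi1. In developing tissues they clear dying cells. Their genes include those of Fc receptors, complement C1q, scavenger receptors and a rich set of lysosomal proteases. The comparison asks whether these genes differ in shelves that carry the R26Pax3 allele, and which of them fetal shelves express at all.

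The allele was visible on the arrays: the brightest probe set of Pax3 read 532.4 to 721.5 in mutant and 141.9 to 176.4 in wild type shelves. A second probe set read 305.4 to 478.1 against 71.2 to 108.4, and the ranges of the third overlapped, at 66.0 to 112.7 and 82.1 to 111.3. Array medians lay between 43.5 and 44.8, and each array held its own values. The shelves had the markers of their tissue. All 8 mesenchymal and all 7 epithelial genes checked read above the level of a panel of genes of other tissues, described next, on every array. So did 10 of 11 endothelial genes, 5 of 8 muscle genes and 4 of 8 neuronal genes. Of all 18193 genes 60.6% did, so the muscle and neuronal counts do not exceed that share by much or at all. The shelves are bulk tissue, so fewer cells of a type and less RNA per cell cannot be told apart in any value below.

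Most myeloid genes of the list gave a signal in the shelves, and the probe sets of a few defining ones did not. MAS5 signals have no zero that marks an unexpressed gene, so the members were set against a panel of 40 genes of retina, testis, liver, pancreas and other distant tissues, of which 35 were measured. The 95th percentile of the panel's mean signals was 27.4, its median was 10.7 and its brightest gene read 39.0. Of the 33 members, 25 read above 27.4 on all 8 arrays, 5 on some arrays and 3 on none. Over all 18193 genes, 60.6% lay above it on all 8 arrays and 25.8% on none. The 3 members below it throughout were Itgam, the integrin alpha chain known as CD11b (7.0 to 22.9 over the 8 arrays), Cd163, the hemoglobin scavenger receptor (0.7 to 10.9), and Trem2, a lipid-sensing receptor of macrophages (2.1 to 26.1). Itgb2, the beta chain that pairs with Itgam, passed it on 1 array (13.9 to 33.5). Folr2, the folate receptor of resident macrophages, passed it on 4 arrays, Cybb, the catalytic subunit of the phagocyte oxidase, on 5, Aif1, the actin-binding protein Iba1, on 6, and Ms4a7, a membrane protein of macrophages, on 7. Probe sets differ in how strongly they bind their transcript, so these signals do not rank the genes against each other. For the same reason a signal below 27.4 does not establish that a gene is unexpressed.

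**Figure D1:**
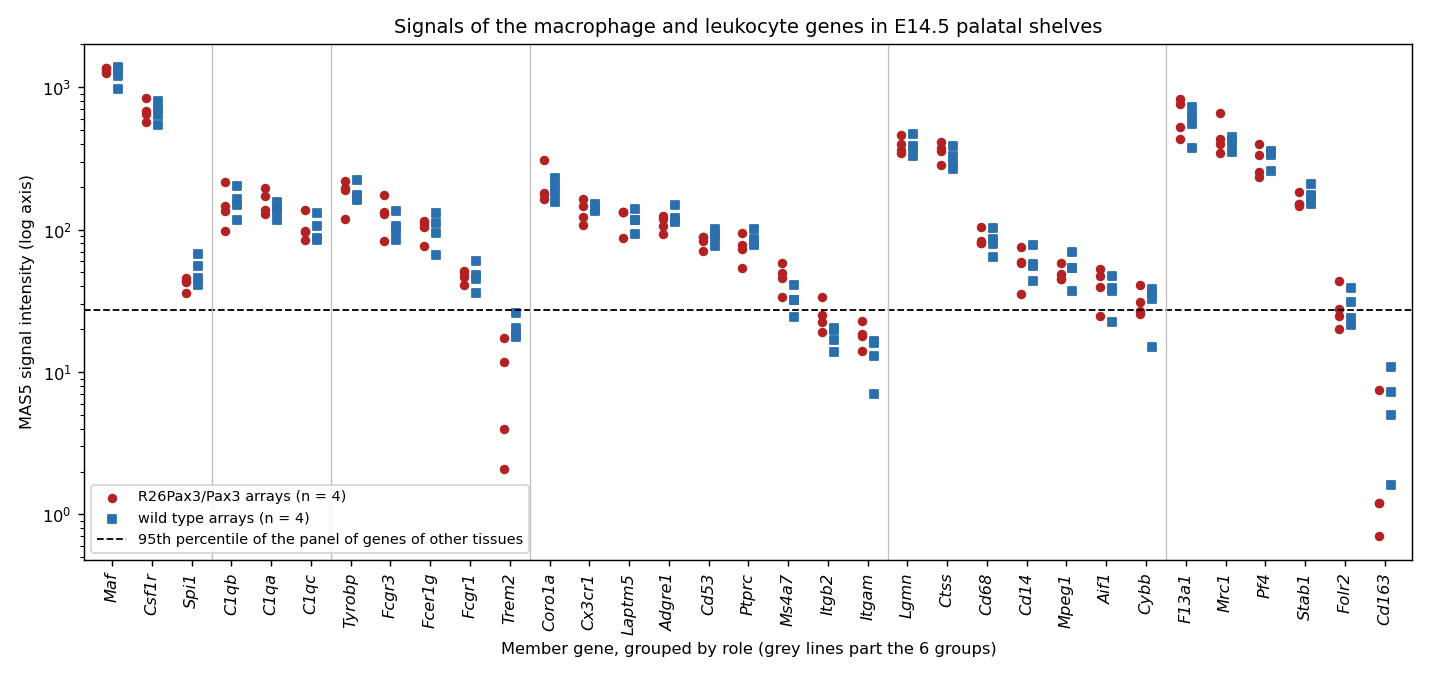
MAS5 signal intensity (log axis) of the 33 member genes on the 4 R26Pax3/Pax3 arrays (red circles) and the 4 wild type arrays (blue squares), with the genes grouped by role on the horizontal axis and the 95th percentile of the panel of genes of other tissues, 27.4, as a dashed line. Itgam, Cd163 and Trem2 lie below the line on every array, 25 members lie above it on every array, and for every gene but Trem2 the points of the genotypes overlap.

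No member differed by genotype past the threshold. Genotypes were compared with limma across 27021 probe sets on log2(signal + 16), a scale that understates the change of dim genes, and probe sets with a Benjamini-Hochberg adjusted p under 0.05 were called. Probe sets dimmer than a mean of 25.4 were not tested, which left out Itgam, Itgb2, Cd163 and Trem2. Of the 29 members tested, 0 were called in limma and each had an adjusted p of 1, against 4 calls among 27021 probe sets overall (0.0148%, of which 0.0074% higher and 0.0074% lower in mutant shelves). At an unadjusted p under 0.05 there was 1 member of 29, higher in mutant shelves, against 4.86% of all probe sets (2.43% higher and 2.44% lower). Groups without overlap were seen for 0 of the 29, against 2.73% of all probe sets (1.39% higher and 1.34% lower). Of the 29 log2 fold changes, mutant minus wild type, 17 were above 0 and 12 below, with a median of 0.02, and over all probe sets 50.3% were above 0 with a median of 0.00. They ranged from -0.23 to 0.38. For 26 of the 29 the 95% confidence interval lay within a 1.5-fold change in either direction on this scale, the others being Fcgr3, Ms4a7 and F13a1, and all 29 intervals lay within 2-fold.

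**Figure D2:**
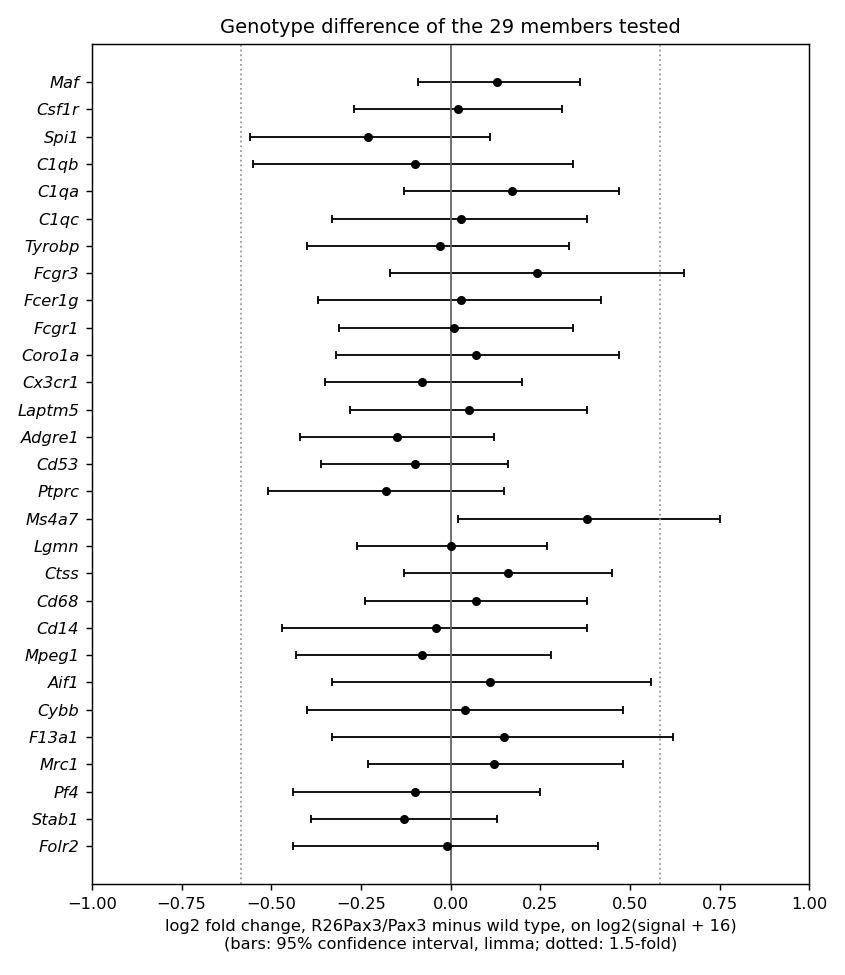
Log2 fold change of R26Pax3/Pax3 minus wild type on log2(signal + 16) for the 29 members tested (points) with limma's 95% confidence interval (bars), 4 arrays per group, and dotted lines at a 1.5-fold change. The points lie between -0.23 and 0.38, and Ms4a7 is the 1 member whose interval leaves out 0.

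Among the receptor and transcription factors on which the lineage depends, Csf1r, the CSF1 receptor, read 832.4, 569.6, 676.1 and 649.1 in mutant replicates 1, 3, 4 and 7, and 639.1, 805.3, 702.3 and 545.6 in wild type replicates 2, 6, 8 and 11. The genotypes spanned nearly the same range, with means of 682 ± 110.1 and 673 ± 109 (SD, n = 4 each) and a log2 fold change of 0.02 (SE 0.132). Its other probe sets had log2 fold changes of 0.03 and -0.12. Spi1 was dim, with 43.1, 36.1, 45.5 and 43.8 in mutant and 46.0, 55.6, 41.1 and 67.5 in wild type shelves. Wild type replicates 2, 6 and 11 lay above all mutant arrays, replicate 2 by little, and replicate 8 lay among them, and the log2 fold change was -0.23 (SE 0.152). Maf, a basic leucine zipper factor of resident macrophages that other cells of the embryo also express, read 1248.2, 1308.5, 1373.1 and 1366.6 in mutant and 973.8, 1375.3, 1196.0 and 1314.7 in wild type shelves. Its low value was that of wild type replicate 2, an array on which many other members were high, and the 5 probe sets of Maf that were tested had log2 fold changes from -0.18 to 0.13.

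C1q, the recognition unit of the classical complement pathway, is built of 3 chains from 3 genes that lie next to each other in the RefSeq gene table of GRCm38.p6, with no protein-coding gene between them. C1qa read 194.7, 128.6, 173.4 and 137.3 in mutant and 156.0, 135.1, 142.2 and 117.4 in wild type shelves. C1qb read 215.8, 97.4, 147.1 and 134.4 in mutant and 202.0, 164.7, 116.7 and 148.4 in wild type shelves. C1qc read 137.6, 84.3, 97.4 and 96.5 in mutant and 129.7, 86.6, 83.9 and 106.2 in wild type shelves. On each of the 3 probe sets mutant replicate 1 was the highest of the 8 arrays, and mutant replicate 3 was the lowest for C1qb. Wild type replicate 2 was second to it for C1qb and C1qc. The log2 fold changes were 0.17 (SE 0.138) for C1qa, -0.10 (SE 0.205) for C1qb and 0.03 (SE 0.162) for C1qc. The further probe sets of C1qb had other orders of arrays. The second was highest on mutant replicate 1, at 163.7, and lowest on wild type replicate 2, at 94.5, while the third was lowest on mutant replicate 1, at 76.8.

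The promoter windows of the members were searched for the binding motif of PU.1. RefSeq windows of GRCm38.p6, from 250 bases before to 50 bases after a gene's start, were at hand for 25 of the 33 members, in 32 windows. The core GAGGAAGT, read on both strands, lay in 5 of the 32 windows and in 3.2% of all 32851 windows. A shorter core of Ets family factors, AGGAAGT, which is part of it, lay in 11 of the 32 (10 genes) and in 9.35% of all. The TATA box TATAAA lay in 4 of 32 and 13.6% of all, the E-box CACGTG in 1 of 32 and 7.15% of all, and the AP-1 motif TGANTCA in 5 of 32 and 7.81% of all. These matches are descriptions of the letters, chosen after the windows had been searched, and no test was made. The 5 matches to the longer core are shown with 30 bases each in the direction of the gene, with the match in capitals, and that to the shorter core in C1qb is shown beside its neighbour C1qc. ACTTCCTC is the core on the opposite strand.
C1qc: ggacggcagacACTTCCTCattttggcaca
C1qb: caggacctgaaACTTCCTgagggcagcagg
Pf4: ttctgcagagcACTTCCTCatcctgtatcc
Ctss: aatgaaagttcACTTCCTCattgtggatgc
Cd53: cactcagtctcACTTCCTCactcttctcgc
F13a1: cgagtccttttGAGGAAGTacccagaggca
The stretch of C1qc is chr4:136893091-136893120 on the minus strand, and its match begins 195 bases before the start. That of C1qb is chr4:136886235-136886264 on the minus strand, with the match from 53 bases before the start. That of Pf4 is chr5:90772414-90772443 on the plus strand, with the match from 10 bases before the start, and that of Ctss is chr3:95526773-95526802 on the plus strand, with a match that spans the start. Those of Cd53, chr3:106790125-106790154, and F13a1, chr13:37049181-37049210, both on the minus strand, have the match at bases 7 and 15 after the start. Of these 6 genes, C1qb, C1qc, Pf4, Ctss and F13a1 had a higher signal on mutant replicate 1 than on mutant replicate 3, and so did Cd53 by less (83.3 against 71.2), as did 26 of all 29 members tested.

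The adaptors Tyrobp and Fcer1g carry the signalling tail for activating receptors that have none, Fcer1g for Fc receptors and Tyrobp for Trem2 and its relatives. Tyrobp read 220.1, 118.0, 195.0 and 189.3 in mutant and 222.2, 160.8, 176.1 and 168.9 in wild type shelves, with a log2 fold change of -0.03 (SE 0.168). Fcer1g read 114.6, 76.4, 104.2 and 110.9 in mutant and 130.7, 65.8, 95.1 and 112.0 in wild type shelves, with a log2 fold change of 0.03 (SE 0.181). Both were highest on wild type replicate 2. Fcgr3, a low-affinity receptor for immunoglobulin G, read 175.2, 83.5, 127.9 and 133.4 in mutant and 134.2, 106.7, 83.9 and 98.0 in wild type shelves. It spanned 2.10-fold over the 8 arrays, from mutant replicate 3 to mutant replicate 1, and its log2 fold change was 0.24 (SE 0.189). Fcgr1, the high-affinity receptor, had 47.1 ± 4.52 and 47.0 ± 10.1 (SD, n = 4 each). Trem2 read 2.1, 4.0, 11.8 and 17.4 in mutant and 18.1, 20.5, 17.6 and 26.1 in wild type shelves. These groups did not overlap, but every value lay below 27.4 and the second probe set of Trem2 had means of 6.30 and 4.70, so neither an expressed level nor a fold was measured.

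Among surface and cytoskeletal proteins of leukocytes, Ptprc, the phosphatase CD45 of leukocytes, read 95.2, 53.7, 73.6 and 78.4 in mutant and 81.5, 86.4, 77.9 and 100.4 in wild type shelves. Its lowest array was again mutant replicate 3, and the log2 fold change was -0.18 (SE 0.151). Cx3cr1, the fractalkine receptor, read 163.0, 121.7, 107.9 and 145.7 in mutant and 139.1, 134.2, 151.6 and 140.3 in wild type shelves. The wild type arrays lay inside the mutant range (log2 fold change -0.08, SE 0.126). Adgre1, the macrophage antigen F4/80, read 124.8, 92.4, 106.5 and 119.6 in mutant and 148.4, 116.0, 120.0 and 113.3 in wild type shelves, with a log2 fold change of -0.15 (SE 0.125). Ms4a7 was the member with the smallest p. It read 33.8, 49.7, 45.7 and 58.7 in mutant and 31.8, 31.8, 40.5 and 24.3 in wild type shelves, means of 47.0 ± 10.3 and 32.1 ± 6.62 (SD, n = 4 each), and the log2 fold change was 0.38 (SE 0.168, unadjusted p = 0.0419, limma adjusted p = 1). Mutant replicate 1 lay below wild type replicate 8, and mutant replicate 1, where most members were high, was the lowest of the mutant arrays here. Of the remaining genes in this group, Coro1a, an actin regulator of leukocytes (207 ± 67.4 and 192 ± 31.6), Laptm5, a lysosomal membrane protein of blood cells (122 ± 23.0 and 117 ± 18.8), and Cd53, a tetraspanin (82.8 ± 8.12 and 90.0 ± 10.2), had log2 fold changes of 0.07, 0.05 and -0.10.

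Of the phagosome and lysosome genes, Ctss, the cysteine protease cathepsin S of antigen-presenting cells, read 354.5, 284.8, 376.8 and 408.9 in mutant and 267.7, 386.5, 326.1 and 291.9 in wild type shelves. The highest and the lowest arrays came from different genotypes but the others interleaved (log2 fold change 0.16, SE 0.132). Lgmn, the lysosomal asparaginyl endopeptidase, had means of 391 ± 52.2 and 392 ± 58.9 and a log2 fold change of 0.00 (SE 0.121). Cd68, a lysosomal glycoprotein of macrophages (86.9 ± 11.1 and 82.6 ± 15.8), Mpeg1, the pore-forming protein perforin-2 (49.2 ± 6.47 and 53.6 ± 13.5), and Cd14, the coreceptor for lipopolysaccharide (57.0 ± 16.5 and 58.6 ± 14.3), had log2 fold changes of 0.07, -0.08 and -0.04. Aif1 and Cybb, near the panel's 95th percentile, had 0.11 and 0.04.

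Genes of scavenger receptors and of resident macrophages gave some of the widest spreads. F13a1, the A subunit of coagulation factor XIII, read 823.9, 429.9, 524.7 and 762.5 in mutant and 625.9, 551.5, 376.0 and 720.4 in wild type shelves. It had the largest SD on the log2 scale of the members tested, 0.39 over the 8 arrays, against a log2 fold change of 0.15 (SE 0.219). Mrc1, the mannose receptor CD206, read 653.8 on mutant replicate 1 and 344.2 to 443.7 on the other 7 arrays (log2 fold change 0.12, SE 0.163). Pf4, a chemokine of platelets that resident macrophages also make, had 306 ± 76.5 and 323 ± 44.5 (SD, n = 4 each), and Stab1, a scavenger receptor shared with some endothelia, had 158 ± 16.8 and 175 ± 24.8. The summed signal of the 4 platelet genes tested lay between 194.2 and 337.7 in mutant and 230.0 and 282.1 in wild type shelves. Of those genes Ppbp, a second platelet chemokine, read 149.1 on mutant replicate 1 and 20.6 on mutant replicate 3, the arrays on which Pf4 was highest, at 401.3, and lowest, at 233.9. Its part in the value of Pf4 was not tested.

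The members moved together from array to array more than they did with genotype. For each gene, the log2 value of an array was set against the gene's own mean over the 8 arrays. On mutant replicate 1, 24 of the 29 members tested lay above their own mean and 14 had their highest value of all arrays there. On mutant replicate 3, 3 of 29 lay above their own mean and 12 had their lowest value. Over all 27021 probe sets, 51.8% and 52.5% lay above their own mean on these arrays, 3511 had their highest value on the first and 3245 their lowest on the second. Wild type replicate 2 followed with 21 of 29, wild type replicate 8 had 9, and the other 4 arrays had between 14 and 16. The median deviation of the members was 0.26 on mutant replicate 1 and -0.23 on mutant replicate 3, and between -0.04 and 0.10 on the 6 remaining arrays. Between mutant replicates 1 and 3 the signals differed by a median of 1.51-fold, higher on replicate 1 for 26 of 29 members, where the median ratio over all probe sets was 0.996. Without Maf, which other cells of the embryo also express, and the proteases Lgmn and Ctss, 22 of 26 lay above their own mean on replicate 1 and 2 of 26 on replicate 3.

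**Figure D3:**
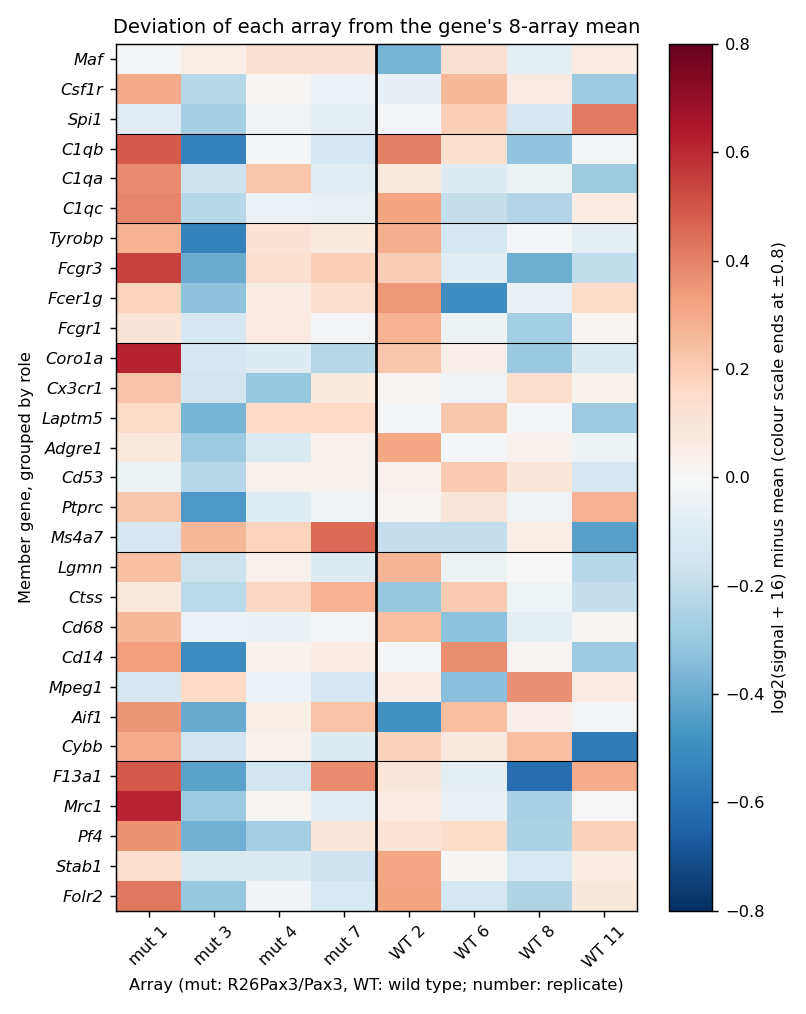
Deviation of log2(signal + 16) from each gene's mean over the 8 arrays, with the 29 members tested in rows, grouped by role, and the arrays in columns (mut: R26Pax3/Pax3, WT: wild type), red for above and blue for below. The column of mutant replicate 1 is mostly red, with 24 of 29 genes above their mean, and that of mutant replicate 3 mostly blue, with 3 of 29.

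Both of these arrays belong to the mutant group. The median member deviation was 0.01 ± 0.20 in mutant and 0.01 ± 0.06 in wild type arrays (SD, n = 4 each). Within the first 4 arrays in order of deposit, mutant replicates 1 and 3 and wild type replicates 6 and 8, the genotype difference of this median was 0.04, and within the last 4 it was -0.04. Which members counted as higher in mutant shelves followed these arrays: 17 of 29 with all arrays, 8 of 29 without mutant replicate 1 and 22 of 29 without mutant replicate 3. The difference between mutant replicates 1 and 3 had counterparts in some other lists and not in others. Genes of monocytes and neutrophils had medians of 0.75 and -0.31 on these arrays, mast cell genes 0.14 and -0.26, and epithelial genes 0.26 and -0.11. The first medians rest on 5 dim genes, of which 0 passed the panel's 95th percentile of 27.4 on all 8 arrays. On mutant replicate 3, Ccr2 (15.1), Mpo (16.1) and Prtn3 (20.3) lay below it, and Ltf (27.6) and S100a8 (47.6) above. The median of these 5 genes was 0.52 on mutant replicate 7 and -0.29 on mutant replicate 4, where the members had -0.007 and 0.02. On mutant replicates 1 and 3, endothelial genes had 0.12 and 0.03, red cell genes 0.22 and 0.20, and mesenchymal genes 0.04 and 0.01. The medians of osteoclast genes went the other way with -0.33 and 0.19, as did those of muscle genes with -0.37 and 0.38, and other myeloid transcription factors had -0.05 and 0.03. The osteoclast medians rest on 5 genes. Acp5, Mmp9 and the dim Atp6v0d2 (12.7 and 36.9) were lower on mutant replicate 1 than on mutant replicate 3. Ctsk was higher (510.6 and 423.7), and Nfatc1 nearly the same (220.2 and 218.1). Genes of dendritic cells and MHC class II had 0.16 and -0.11, platelet genes 0.22 and 0.04, and neuronal genes had 0.31 and 0.77. The ratios of 3′ to 5′ signal, which rise as RNA degrades, were 1.44 and 1.41 for Actb and 0.80 and 0.773 for Gapdh on these arrays, inside or at the edge of the ranges over all arrays of 1.39 to 1.48 and 0.698 to 0.80. Xist, the transcript of the inactive X chromosome, read 56.9 on mutant replicate 1, 39.0 on wild type replicate 11 and nearly as little on mutant replicate 7, and 4200.5 to 5882.0 on the other 5 arrays, mutant replicate 3 among them. It was thus low on 2 mutant arrays and 1 wild type array. The members' median deviation was -0.007 on each of mutant replicate 7 and wild type replicate 11, where Xist was also low, and 0.10 on wild type replicate 2, where it was high. The part of any of these in the members' pattern was not tested.

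A further set of 43 macrophage genes showed the pattern in part. Bulk tissue does not show which cells gave the signals of its bright genes, such as Igf1 (2348.9 to 3429.9) and Ctsb (1518.4 to 1849.1). No count was made without them. Of 39 measured and 27 tested, 13 were higher and 14 lower in mutant shelves, 0 were called in limma, and 0 had an unadjusted p under 0.05. Their median log2 fold change was -0.02. On mutant replicate 1, 24 of 27 lay above their own mean, and on mutant replicate 3, 11 of 27 did, with median deviations of 0.21 and -0.11. Mutant replicate 3 did not stand apart as the low array here. Mutant replicate 4 also had 11 of 27, and mutant replicate 7 had 8 of 27 with a median of -0.10. Mutant replicate 3 held 3 of the lowest values, against 7 each on mutant replicate 7 and wild type replicate 6. Examples are Lyz2, the lysozyme of myeloid cells (205 ± 34.2 and 169 ± 29.3, log2 fold change 0.26), Fcgr2b, the inhibitory Fc receptor (119 ± 34.1 and 118 ± 8.88, -0.02), Csf2rb, a shared cytokine receptor chain (111 ± 13.1 and 89.5 ± 11.0, 0.27, unadjusted p = 0.0504), and Ccl12, a monocyte chemokine (60.5 ± 11.8 and 43.2 ± 12.4, 0.38, unadjusted p = 0.0549), each with a limma adjusted p of 1. Ccl24, a chemokine for eosinophils, had groups without overlap (7.3 to 9.5 in mutant and 4.1 to 6.1 in wild type shelves), but all its values lay below 27.4 and it was not tested.

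**Figure D4:**
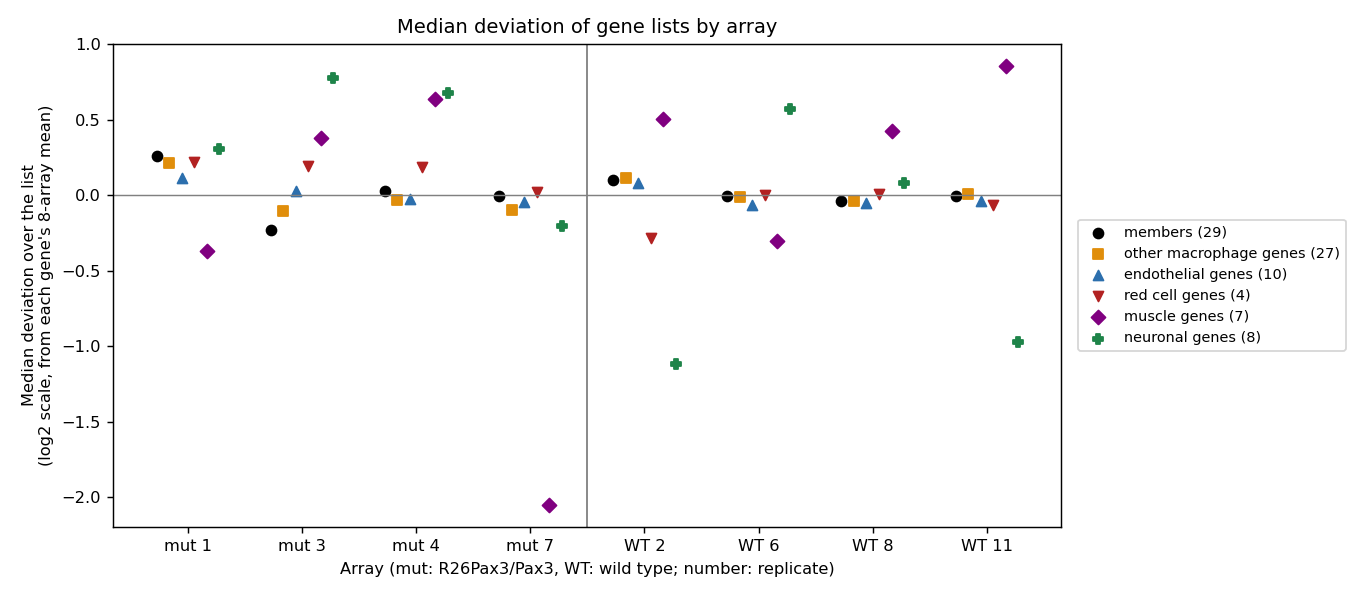
Median deviation from the 8-array mean on the log2 scale, by array (mut: R26Pax3/Pax3, WT: wild type), for the 29 members, 27 other macrophage genes and the genes of 4 other cell types, with the number of genes tested in the legend. Both macrophage lists are at their highest on mutant replicate 1 (0.26 and 0.21), while muscle and neuronal genes vary more widely and in another order of arrays.

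The ligands and regulators of the lineage were read from lists of their own. Of 9 ligands and chemokines 5 were tested, 2 higher and 3 lower, and 0 were called. Csf1 read 192.7, 243.1, 175.1 and 187.0 in mutant and 227.0, 234.4, 242.0 and 313.0 in wild type shelves. Mutant replicate 3 lay above 3 of the 4 wild type arrays and the other mutant arrays below all of them, and the log2 fold change was -0.32 (SE 0.128, unadjusted p = 0.0259, limma adjusted p = 0.995). Csf1 was thus higher on mutant replicate 3, where most members, Csf1r among them, were low, than on the other mutant arrays. It was highest on wild type replicate 11, where Csf1r was lowest, at 545.6, but the members' median deviation was -0.007. Ccl2, a monocyte chemokine, had means of 41.2 ± 9.53 and 31.8 ± 9.98 (log2 fold change 0.27). Il34, the other ligand of Csf1r, lay below the panel's 95th percentile on all 8 arrays (2.2 to 23.0). Cxcl12 and Tgfb1, which draw in or instruct leukocytes among many other cells, had log2 fold changes of -0.13 and -0.14. Of 11 other myeloid transcription factors 10 were tested, 8 higher and 2 lower, 0 called, with a median of 0.07. Irf8, a partner of PU.1, had 50.3 ± 14.9 and 47.8 ± 5.85, and Zeb2 (542 ± 166 and 418 ± 29.6) and Runx1 (313 ± 31.5 and 277 ± 35.1), both active in other tissues too, had log2 fold changes of 0.31 and 0.17 (limma adjusted p = 1 each).

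Markers of other blood cells ranged from signals as low as those of the panel to bright ones. Of 8 red cell genes 4 passed the panel's 95th percentile on all 8 arrays, among them the embryonic globin gene Hbb-y (4271.8 to 6774.0). So did 3 of 7 platelet genes (Gp1bb, Itga2b and Vwf) and 3 of 10 mast cell genes (Kit, Cpa3 and Gata2), against 60.6% of all 18193 genes. The globin gene Hba-a1 of the red cell list read 1.6 to 11.2, so such a low signal does not establish that a gene is unexpressed. Of 11 lymphocyte genes measured, 0 passed the panel's 95th percentile on any array. Of 10 genes of monocytes and neutrophils 0 passed it on all 8 arrays, and S100a8, a calcium-binding protein of these cells, passed it on 7 (67.3 ± 29.8 and 39.2 ± 11.3). Prtn3, a protease of neutrophil granules, passed it on 5 and had a log2 fold change of 0.49 (SE 0.246, limma unadjusted p = 0.0707). Its means were 39.2 in mutant and 23.0 in wild type shelves. The second lay below the mean of 25.4 that testing required, so Prtn3 was tested only through its mutant signals. Of 5 microglial genes 1 passed the panel's 95th percentile on all arrays, Tmem119, which is also known from bone-forming cells. P2ry12, the microglial purine receptor, read 11.4 to 25.8. Mast cell genes were mixed, with Cpa3, a mast cell protease, above it on all arrays (88.6 to 210.7) and Mcpt4, Fcer1a, Tpsb2 and Ms4a2 below it on all. Gata2, a transcription factor of mast cells and blood progenitors, had a log2 fold change of 0.13 (SE 0.137). Of the platelet genes, Gp1bb (42.1 ± 11.9 and 50.5 ± 9.14) and Itga2b (64.3 ± 3.94 and 74.4 ± 9.62), subunits of platelet adhesion receptors, had log2 fold changes of -0.21 and -0.17.

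Genes with several probe sets give a check within the arrays. Of 7 members with more than 1 probe set tested, 21 probe sets in all, the probe sets of 3 (Coro1a, Cx3cr1 and Fcgr1) had the same sign of genotype difference. Over these 21 the log2 fold changes lay between -0.26 and 0.28 and none was called in limma (adjusted p = 1 for each).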

How the data were processed

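The deposited values are linear signal intensities per probe set. The submitters' processing notes name MAS5 without a version, and any scaling between arrays is not given in the sources used here. RNA was extracted with Trizol and labelled from 6 µg, per the labels' protocols. The 64 control probe sets were left out. Of the remaining 45037, 34945 had 1 gene symbol in the platform annotation, 932 several and 9160 none, and none was named from several. All 33 members were found in the RefSeq table by gene identifier.

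Values were taken as log2(signal + 16), and probe sets above the 40th percentile of mean signal were tested (27021), with lmFit and eBayes with an intensity trend in limma 3.58.1, R 4.3.3, with no covariates. The number of arrays limits the precision. The procedure was tested on simulated data. Members given in every array were the 8 with the smallest p, those with no overlap, the 3 with the largest SD, and the C1q chains, Fcer1g, Tyrobp, Csf1r, Spi1 and Cx3cr1; of other lists, the 2 smallest p and those with no overlap were named (not of the sex-linked list), and some others were chosen after their values were seen. The members and lists were chosen with earlier results of these data known. Alternatives were other pseudocounts (1 and 64), filters (none and the 60th percentile), quantile normalization, no trend, the order of deposit as a block, all probe sets of a gene, and leaving out each array.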

Additional observations from a re-analysis of the deposited data

Results flagged for a closer look

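Within groups of 4 arrays, a single value stood apart from the other 3 in 4 of 68 groups examined, and chance does so in about 1 in 20. Coro1a read 307.9 on mutant replicate 1, against 164.6 to 180.4 on the other mutant arrays. Cd68 read 103.5 on mutant replicate 1, against 80.2 to 82.9. Laptm5 read 87.5 on mutant replicate 3, against 133.2 to 133.6. Cd163 read 7.5 on mutant replicate 4, below the level of unexpressed genes like its other values. The first 3 lie on the arrays on which most members were high or low, and each points the same way as those members, to which these genes belong. Other probe sets did not repeat this for Laptm5 and Coro1a. The second of Laptm5 read 99.5 on mutant replicate 3, above mutant replicates 1 and 4 at 72.0 and 69.3. The second of Coro1a read 138.7 on mutant replicate 1 and 139.8 on mutant replicate 4.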

How the results depend on the processing

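The 4 calls over all probe sets, the members' median log2 fold change (0.02) and the 17 members higher in mutant shelves stayed within 1.5 times or within the spread between arrays under the other pseudocounts, filters, normalization, trend and block. The median and the number higher did so too with all probe sets of a gene averaged, which was not run for the calls. Leaving out 1 array gave 4 to 9 calls, the 9 without mutant replicate 3, between 8 and 22 members higher, and a median from -0.08 to 0.10. No member was called under the alternatives that gave an adjusted p, which the average of a gene's probe sets did not (lowest limma adjusted p = 0.746, for Ms4a7 without mutant replicate 1). With all probe sets of a gene averaged, Csf1r (-0.022) and Maf (-0.01) changed sign. Leaving out single arrays changed the sign of 19 of the 29 log2 fold changes, which were near 0. Their ranges were -0.13 to 0.15 for Fcer1g, -0.08 to 0.11 for Fcgr1, -0.13 to 0.14 for Tyrobp, -0.28 to 0.06 for C1qb, -0.098 to 0.135 for C1qc, -0.079 to 0.108 for Csf1r, -0.12 to 0.16 for Coro1a, -0.164 to 0.013 for Cx3cr1, -0.037 to 0.184 for Laptm5 and -0.031 to 0.266 for Aif1. They were -0.16 to 0.12 for Cd14, -0.028 to 0.161 for Cd68, -0.145 to 0.124 for Cybb, -0.079 to 0.09 for Lgmn, -0.202 to 0.031 for Mpeg1, -0.034 to 0.312 for F13a1, -0.156 to 0.089 for Folr2, -0.057 to 0.242 for Mrc1 and -0.23 to 0.016 for Pf4. Of those that kept their sign, some moved by over 1.5 times: Fcgr3 from 0.24 to 0.098 without mutant replicate 1 and 0.412 without mutant replicate 3, C1qa from 0.17 to 0.076 and Stab1 from -0.13 to -0.195 without mutant replicate 1, and Ptprc from -0.18 to -0.286 without mutant replicate 1 and -0.061 without mutant replicate 3. Without wild type replicate 2, Maf had 0.033, Ctss 0.083, Adgre1 -0.069 and Stab1 -0.047. Without mutant replicate 3, Ctss had 0.256 and Cd53 -0.041, and without wild type replicate 11, Spi1 had -0.126 and Cd53 -0.161. The cause was not tested. No paired analysis was possible because the groups share no replicate numbers. Signals near the panel of genes of other tissues limit what can be said of Aif1, Cybb, Folr2, Itgb2 and Ms4a7.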

Other observations

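Genes of antigen presentation had their own order of arrays. H2-Eb1, a beta chain of MHC class II, read 39.2, 35.4, 65.7 and 37.2 in mutant replicates 1, 3, 4 and 7 and 29.4, 21.0, 19.3 and 23.8 in wild type replicates 2, 6, 8 and 11. The groups did not overlap, as for 2.73% of all probe sets, and the log2 fold change was 0.60 (SE 0.181, unadjusted p = 0.00651, limma adjusted p = 0.827). Wild type replicates 6, 8 and 11 lay below the panel's 95th percentile of 27.4. The means were 44.4 in mutant and 23.4 in wild type shelves. The second lay below the mean of 25.4 that testing required, so H2-Eb1 was tested only through its mutant signals. H2-Aa, at 98.8, and H2-Ab1, at 60.1, other MHC class II chains, were also highest on mutant replicate 4. On that array the macrophage members were near their mean. Of 10 genes of this list 5 were tested, 4 higher and 1 lower, and 0 were called. The class II gene Cd74, the invariant chain, had a log2 fold change of 0.10.

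Osteoclasts descend from the same lineage and share Csf1r. Of 10 osteoclast genes 5 were tested, 1 higher and 4 lower in mutant shelves, and 0 were called. Ctsk, the collagen-degrading cathepsin K of osteoclasts that fibroblasts can also express, read 510.6, 423.7, 542.6 and 496.3 in mutant and 543.4, 666.7, 600.2 and 660.6 in wild type shelves. All mutant arrays lay below all wild type arrays, by little between mutant replicate 4 and wild type replicate 2, and the log2 fold change was -0.32 (SE 0.099, unadjusted p = 0.00784, limma adjusted p = 0.883). Acp5, the tartrate-resistant phosphatase of osteoclasts, had means of 97.7 ± 35.0 and 101 ± 29.1 (SD, n = 4 each) and a log2 fold change of -0.07. Nfatc1, the transcription factor that drives osteoclast formation and acts in other cells too, had 222 ± 13.2 and 201 ± 3.90 without overlap and a log2 fold change of 0.13 (unadjusted p = 0.153). Calcr, Ocstamp, Dcstamp and Itgb3 lay below the panel's 95th percentile on all 8 arrays.

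Hdc, the enzyme that makes histamine and a marker of mast cells and basophils, read 67.7, 4.4, 12.5 and 38.1 in mutant and 33.5, 61.0, 104.3 and 60.7 in wild type shelves (log2 fold change -0.93, SE 0.395, unadjusted p = 0.0358, limma adjusted p = 0.997). Mutant replicates 3 and 4 lay below the panel's 95th percentile and the other arrays above it.

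Among the lists of other tissues, Lum, the matrix proteoglycan lumican, had means of 3158 ± 294 in mutant and 4030.2 ± 271 in wild type shelves (SD, n = 4 each) without overlap, and a log2 fold change of -0.35 (SE 0.0809, unadjusted p = 0.000967, limma adjusted p = 0.525). Col1a1, the collagen I alpha chain, had -0.33. Of the 8 mesenchymal genes tested 2 were higher and 6 lower, and Osr2, among the higher, had 0.34. The epithelial keratins Krt14 (1279 ± 247 and 827 ± 164) and Krt5 (731 ± 118 and 556 ± 179) had 0.62 and 0.43, the first with a limma adjusted p of 0.602. The keratins Krt8 and Krt18 had -0.03 and -0.06, and of the 7 epithelial genes tested 5 were higher and 2 lower. The red cell genes Alas2 and Hbb-y had 0.45 and 0.21, and all 4 red cell genes tested were higher. The endothelial genes Tie1 and Esam had 0.21 and 0.14, but of the 10 tested 6 were higher and 4 lower, with a median of 0.01. The muscle genes Acta1 and Myod1 had -0.80 and -0.48, and all 7 muscle genes tested were lower. The neuronal genes Elavl4 and Nefl had 0.99 and 0.74, and all 8 neuronal genes tested were higher. None of these was called in limma.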
